A study of Arabidopsis thaliana with 6 samples.

Results

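In the insertion tracks of *ONSEN*, 7 stretches of tandemly repeated DNA in the regions around centromeres were covered by long clusters of lines. A line is 1 entry of a deposited browser track, a 50-bp position on a chromosome with a strand sign and with at least 1 name out of the 8 original *ONSEN* copies. The lines of each library were merged when they lay within 500 bp of each other, and a cluster was a merged locus that spanned more than 1000 bp. The clusters were thus selected on the measured positions, and their number and length are descriptions. There was 1 cluster among the 92 loci of library 1 and there were 6 clusters among the 163 loci of library 2. In library 1 the cluster held 38 of 896 lines (4.24%). In library 2 the clusters held 305 of 1544 lines (19.8%), which makes 343 of 2440 lines in all (14.1%). The shortest cluster spanned 3563 bp, and the longest locus below the threshold spanned 768 bp with 11 lines, so no locus lay close to 1000 bp.

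Both libraries were made from genomic DNA of 1-week-old plants of the *nrpd1-3* mutant in the Col-0 ecotype, grown at 21 °C, and both carry the name of a second ABA-tolerant *ONSEN* line. The mutated gene encodes the largest subunit of the plant RNA polymerase IV (PolIV). The labels disagree about the parent plant, which is given as not stressed in 1 field and as kept at 37 °C for 24 h in another. No control without the mutation or without *ONSEN* transposition was analysed here, and whether the libraries came from separate plants is not stated. The libraries were therefore described side by side and not averaged or tested against each other. Fragments were sequenced from both ends, with reads of 50 and 35 bp. The tracks do not state how many reads were sequenced or mapped. The depth is unknown, and lines could not be counted as independent molecules.

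*ONSEN* is a Copia-type retrotransposon, an element that copies itself through RNA and inserts the DNA copy elsewhere, and it is known for its activation by heat. PolIV makes the precursors of the small RNAs that guide DNA methylation to such elements. The centromeres of *Arabidopsis* are built from a short satellite unit that is repeated head to tail over very long stretches, and much of these arrays is missing from older genome assemblies. The 5S ribosomal RNA genes also lie in long tandem arrays beside some centromeres. In both kinds of array, copies of the unit resemble each other, so that a short sequence can have several matching places.

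The repeat under each cluster was found by comparing the reference with itself at distances of 100 to 600 bp. For 6 clusters the best match was at the same distance, the length of the unit printed here, which is that of the centromeric satellite and is named the short unit below. For the cluster on chromosome 5 that is numbered 5 below, the best match was at 502 bp. The short unit is shown because nearly all clusters lie on it. It was read from chr5:11701991-11702168 of the TAIR10.1 assembly (RefSeq), plus strand, and the capitals mark the 33 bases shared by the most frequent lines of library 2.
Short unit: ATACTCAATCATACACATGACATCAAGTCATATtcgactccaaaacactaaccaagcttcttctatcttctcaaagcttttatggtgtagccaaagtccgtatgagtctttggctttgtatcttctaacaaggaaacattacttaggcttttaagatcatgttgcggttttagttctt
The cluster on the 502-bp unit is represented by 198 bases from chr5:11185231-11185428, plus strand, in which the capitals mark the 48 bases shared by the 8 lines that named all *ONSEN* copies.
502-bp unit, part: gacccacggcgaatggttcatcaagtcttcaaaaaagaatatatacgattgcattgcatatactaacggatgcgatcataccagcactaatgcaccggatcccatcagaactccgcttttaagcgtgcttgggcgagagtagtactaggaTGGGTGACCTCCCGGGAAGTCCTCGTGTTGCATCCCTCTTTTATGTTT
Neither unit aligned to any of the 8 *ONSEN* copies, to any of the 14 annotated rRNAs, or to the chloroplast and mitochondrial genomes (BLAST+, E-value limit of 1e-05). The only nuclear gene that the annotation names as 5S rRNA, *AT2G01020*, was among these rRNAs, but it has the length of the gene annotated as 5.8S rRNA, so that no nuclear 5S repeat was at hand for comparison. Whether the 502-bp unit is a 5S rRNA gene repeat was therefore not settled by the annotation. Of 4843 annotated pseudogenes and transposable elements, 10 aligned to the short unit and 6 to the 502-bp unit.

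The cluster of library 1, cluster 1, lay at chr3:13588963-13592525 and held 38 lines, 18 with a plus and 20 with a minus in the strand column. Its span held 20 copies of the short unit, all on the minus strand, with a median identity of 91.0% to the unit shown above. The array reached only 97 bp further, so that the cluster covered 97.3% of it. A run of 56 unknown bases (N) lay inside the span. The midpoint of another run, of 1000 unknown bases, lay 676 bp before the cluster, so 97.3% refers to the array as assembled. The nearest annotated features were the pseudogenes *AT3G33055*, 4988 bp before the cluster, and *AT3G33058*, 9274 bp after it.

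Cluster 2 of library 2 lay at chr2:3616112-3622621 and held 61 lines, 32 plus and 29 minus. All 37 copies of the unit under it were on the minus strand (median identity, 92.0%). The cluster covered 49.8% of an array of 13070 bp, which went on for 1195 bp before and 5365 bp after it. A run of 100 unknown bases lay inside the span. This was the only cluster with annotated genes underneath. Of its 61 lines, 15 overlapped *AT2G07981* (chr2:3614986-3617716, plus strand) and 44 overlapped *AT2G08986* (chr2:3618058-3626460, plus strand), both annotated as protein-coding. Exons were overlapped by 8 of the 15 lines and by 23 of the 44 lines. The gene models themselves lay on the repeat. Copies of the unit covered 99.5% of *AT2G07981* and 99.9% of *AT2G08986*, and of the 45 distances between successive exon starts of *AT2G08986*, 23 were within 5 bp of the length of a whole number of units. The lines in these genes thus lay on the satellite array as well.

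Clusters 3 and 4 lay on chromosome 4, at chr4:3950608-3955997 and chr4:4005040-4011697. Cluster 3 held 50 lines, 24 plus and 26 minus, over 30 copies of the unit. It filled 99.9% of its array, began 5 bp after the pseudogene *AT4G06700*, which itself aligned to the unit, and ended 24 bp before a run of unknown bases. Cluster 4 held 51 lines, of which 38 were plus and 13 minus, the most uneven split among the clusters on the short unit. It covered 48.3% of an array of 13681 bp that went on for 7078 bp before the cluster. In both, all copies of the unit were on the plus strand.

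The other 3 clusters lay on chromosome 5. Cluster 6, at chr5:11701978-11711019, was the largest by span and by lines, with 93 lines (52 plus, 41 minus) over 52 copies on the plus strand. It covered 88.4% of its array. Cluster 7, at chr5:11730499-11735134, held 33 lines (13 plus, 20 minus) over 26 copies on the minus strand and covered 37.9% of an array of 12239 bp. Cluster 5, at chr5:11184650-11188718, differed from the others in its unit and in its strand signs. It held 17 lines, all minus, on 8 copies of the 502-bp unit, and it filled its array. Across the 5 chromosomes, 471 alignments of at least 400 bp to the 502-bp unit were found. Of these, 367 were on chromosome 3 (median identity, 83.3%), 81 on chromosome 5 (91.7%) and 14 on chromosome 4 (95.2%). No annotated gene lay under clusters 1, 3, 4, 5, 6 or 7. Cluster 5 lay between the pseudogene *AT5G29550*, 135 bp away, and the protein-coding gene *AT5G29560*, 1695 bp away.

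The position relative to the centromere depended on how the centromere was placed, since the annotation does not mark it. The midpoint of the longest run of unknown bases, with the nearest run taken where several were equally long, lay 676 bp from cluster 1, 7682 bp from cluster 2, 524 bp from cluster 3 and 48518 bp from cluster 4. On chromosome 5 it lay 1647536, 1125235 and 1101120 bp from clusters 5, 6 and 7. The runs on chromosomes 2 to 4 were only 1000 bases long, and they may mark any gap of the assembly. The 100-kb window with the most copies of the unit gave 36438 bp for cluster 1 and 10908 bp for cluster 2, but 984529 and 1038961 bp for clusters 3 and 4. With this window, clusters 5, 6 and 7 lay 713127, 190826 and 166711 bp away. Only clusters 1 and 2 were within 50 kb of both.

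Within a cluster, lines of similar sequence were regularly spaced. Lines with the same strand sign, the same copy names and nearly the same sequence were put in a family, as described below. Within a family and a cluster, 251 of 297 distances between successive lines (84.5%) came within 5 bp of a whole number of units, and 73 equalled 1 unit. Because a family groups lines by sequence, this spacing on a tandem repeat follows largely from the grouping and the reference. All 15 distances in cluster 5 were from 502 to 504 bp. All distances in clusters 3 and 4 were within 5 bp of a whole number of short units, whereas 28 of the 86 distances in cluster 6 were not. The shortest of them was 168 bp. Over all families of a cluster, the median distance between successive lines was from 58 to 115 bp on the short unit and 251.5 bp in cluster 5, and the largest was 493 bp. The clusters are therefore rows of separate positions that mostly recur with the repeat unit, not continuous coverage.

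**Figure D1:**
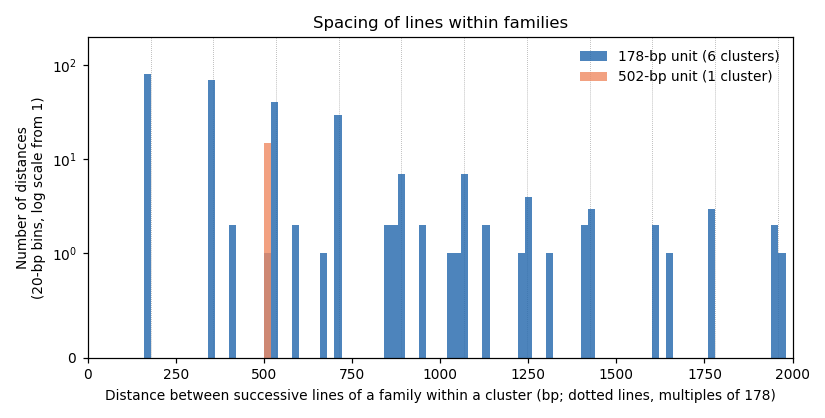
Distances between successive lines of the same family within a cluster (x axis, bp) against their number (y axis, 20-bp bins, log scale from 1), for the 6 clusters on the short unit in blue and for cluster 5 in orange. Most bars stand at the dotted multiples of the short unit, and the 15 distances of cluster 5 stand at 502 to 504 bp. The 9 distances over 2000 bp are not drawn.

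The 343 lines fell into a few groups of similar sequences, from 10 different 50-base sequences in library 1 and 91 in library 2. When lines of a cluster were grouped by strand sign, copy names and their 50-base sequence with up to 5 mismatches, there were 5 families in cluster 1, and 8, 9, 8, 2, 7 and 10 families in clusters 2 to 7. Families of different clusters resembled each other, but in arrays of opposite orientation only part of the line matched. Lines with the same copy names and strand sign were therefore compared over each length of 20 to 55 bases, counted from the lower-numbered end of the line. Pairs that were exact reverse complements of each other occurred at 2 of the 36 lengths, 33 and 48 bases, and at none of the other 34. At 33 bases there were 1365 such pairs, all among lines with a plus. At 48 bases there were 223 pairs among plus lines and 503 among minus lines. The lines of these pairs, all from library 2, thus shared a stretch of 33 or 48 bases that began at their lower-numbered end. The remaining 17 or 2 bases of the 50-bp line were whatever the reference held next. For library 1 and for lines without such a pair, this comparison gave no length. These lengths are each 2 bases short of the reads of 35 and 50 bp. How the authors drew the lines from the reads is not stated, and the reason for the lengths was not tested.

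**Figure D2:**
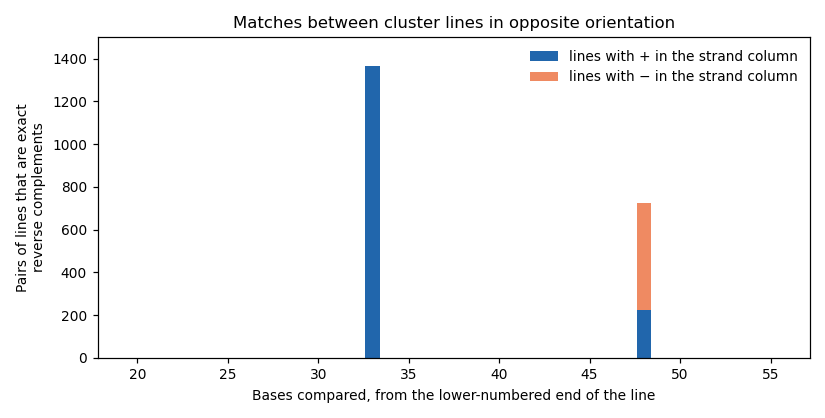
Number of pairs of cluster lines with the same library, strand sign and copy names that are exact reverse complements (y axis) at each number of bases compared from the lower-numbered end of the line (x axis). Bars appear at 33 and 48 bases only, with 1365 pairs at 33 bases, all among plus lines in blue, and minus lines in orange at 48 bases only.

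Example lines of library 2 from cluster 6, whose array is on the plus strand, and from cluster 2, whose array is on the minus strand, show this match. All are written 5′ to 3′ on the plus strand of the reference, with the shared stretch in capitals. The first pair belongs to the family that named *AT1G21945*, *AT1G48710*, *AT3G32415*, *AT3G59720* and *AT5G13205* with a plus, at chr5:11701991-11702040 and chr2:3616112-3616161.
Cluster 6, 33 bases: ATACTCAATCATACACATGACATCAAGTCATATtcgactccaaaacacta
Cluster 2, 33 bases: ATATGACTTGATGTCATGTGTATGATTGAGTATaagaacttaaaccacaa
The second pair belongs to the family that named every copy except *AT3G61330* with a minus, at chr5:11701996-11702045 and chr2:3616270-3616319.
Cluster 6, 48 bases: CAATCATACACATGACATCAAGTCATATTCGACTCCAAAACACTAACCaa
Cluster 2, 48 bases: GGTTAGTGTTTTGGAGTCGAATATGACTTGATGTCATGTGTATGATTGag
In each pair the capitals were exact reverse complements of each other, with 0 mismatches. Over all 50 bases the same comparison gave 34 mismatches in the first pair and 37 in the second.

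With the 33-base or 48-base stretch as the criterion, the 343 lines fell into 20 families, 5 in library 1 and 15 in library 2. For families seen in 1 orientation only, the length was assigned as 48 bases where all lines were within 1 mismatch over that length and as 33 bases otherwise. Families are numbered within each library by their number of lines. In 287 lines the stretch was identical to the most frequent sequence of the family, in 53 lines it differed by 1 base, in 2 lines by 2 bases and in 1 line of cluster 7 by 6 bases. The 10 families with 10 or more lines held 295 of the lines. In library 2, 9 of the 15 families had lines in more than 1 cluster, and 8 had lines in both orientations of the repeat. The sign in the strand column was a plus in 4 of these families and a minus in the other 4. The sign was part of the grouping, but leaving it out also gave 5 and 15 families, so no stretch occurred with both signs under the same copy names. The strand column thus did not follow the strand of the reference on which the sequence was found, and the mixed signs within a cluster reflected a mixture of families.

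Family 1 of library 2, with the 33 bases shown above, had 83 lines, of which 32 were in cluster 6, 20 in cluster 2, 14 in cluster 3, 10 in cluster 4 and 7 in cluster 7. It lay at positions 1 to 33 of the unit. Family 2, the 48-base family shown above, had 59 lines in the same 5 clusters and lay at positions 6 to 53 of the unit, so that it overlapped family 1 but had the opposite sign. Families 3 (33 lines, plus, 5 copies named) and 4 (30 lines, minus, *AT1G21945* alone) also had lines in these 5 clusters. Family 5 (24 lines, minus, *AT3G32415* alone) was spread over 4 clusters, and most of its lines were in clusters 3 and 2, with 11 and 7 lines. Family 6, which named all 8 copies with a plus, had 18 lines, all in cluster 4. These were 18 of the 38 plus lines of that cluster. Together the 18 families on the short unit covered 159 of its bases (89.3%).

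**Figure D3:**
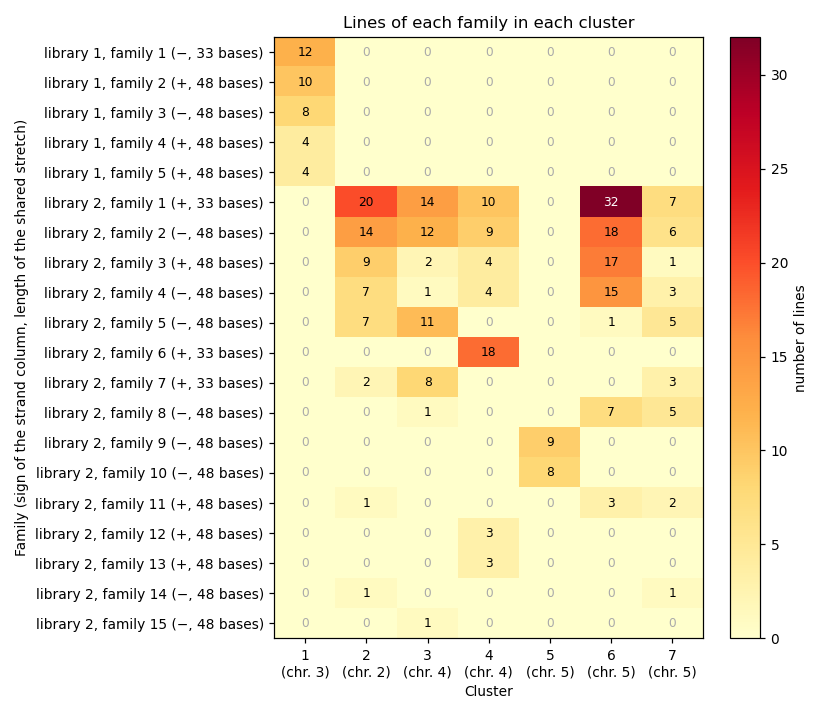
Number of lines of each of the 20 families (rows, with the sign of the strand column and the length of the shared stretch) in each of the 7 clusters (columns). Families 1 to 4 of library 2 have lines in each of clusters 2, 3, 4, 6 and 7, with 32 lines of family 1 in cluster 6, while cluster 5 holds only families 9 and 10 and cluster 1 holds only the 5 families of library 1.

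Cluster 5 consisted of families 9 and 10 of library 2. Family 9 had 9 lines that named *AT1G48710*, *AT1G58140*, *AT3G32415*, *AT3G59720* and *AT5G13205*, and family 10 had 8 lines that named all 8 copies. Their first lines, at chr5:11184650-11184699 and chr5:11184879-11184928, are shown because they are the only families that did not come from the short unit.
Family 9: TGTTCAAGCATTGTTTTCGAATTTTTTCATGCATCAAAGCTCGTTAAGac
Family 10: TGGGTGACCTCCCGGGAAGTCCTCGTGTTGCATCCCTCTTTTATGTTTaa
The nearest lines of both families were 229 bp apart. These stretches had 9 and 8 identical sites on the 5 chromosomes, all in cluster 5 and all with a line.

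The 5 families of library 1 had 12, 10, 8, 4 and 4 lines in cluster 1. The stretches of the 3 largest are shown for comparison with library 2, at chr3:13588963-13589012, chr3:13589346-13589395 and chr3:13589536-13589585.
Library 1, family 1: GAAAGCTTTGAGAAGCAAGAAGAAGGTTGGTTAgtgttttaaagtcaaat
Library 1, family 2: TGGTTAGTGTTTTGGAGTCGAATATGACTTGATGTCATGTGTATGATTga
Library 1, family 3: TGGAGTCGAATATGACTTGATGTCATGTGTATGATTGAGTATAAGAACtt
Family 1 named 5 copies with a minus, family 2 named *AT3G32415* alone with a plus, and family 3 named all 8 copies with a minus. None of the 75 pairs of a family of library 1 with a family of library 2 had the same stretch. The closest pair, family 2 of library 1 and family 2 of library 2, shared 47 of their 48 bases with the ends shifted, and 7 pairs overlapped by 30 bases or more.

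Matching sites were common outside the clusters, yet carried no line. The stretches of the 5 families of library 1 had 300 identical sites on the 5 chromosomes, of which 37 had a line, and all 37 were the sites inside cluster 1. The stretches of the 15 families of library 2 had 832 identical sites. Inside the clusters in which a family occurred, 250 of 270 such sites (92.6%) had a line. Elsewhere, 0 of 263 sites of library 1 and 0 of 562 sites of library 2 had one. The families were built from cluster lines only. No line outside the clusters overlapped any of the 2458 copies of the short unit found on the 5 chromosomes, of which 203 (8.26%) lay under the clusters. Since lines within 500 bp of each other make a cluster, lines on neighbouring units had to fall inside one. Another array with many such lines would itself have been a cluster, so the counts of 0 elsewhere follow largely from the selection. Only isolated lines or loci of at most 1000 bp on other arrays could have counted as outside.

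**Figure D4:**
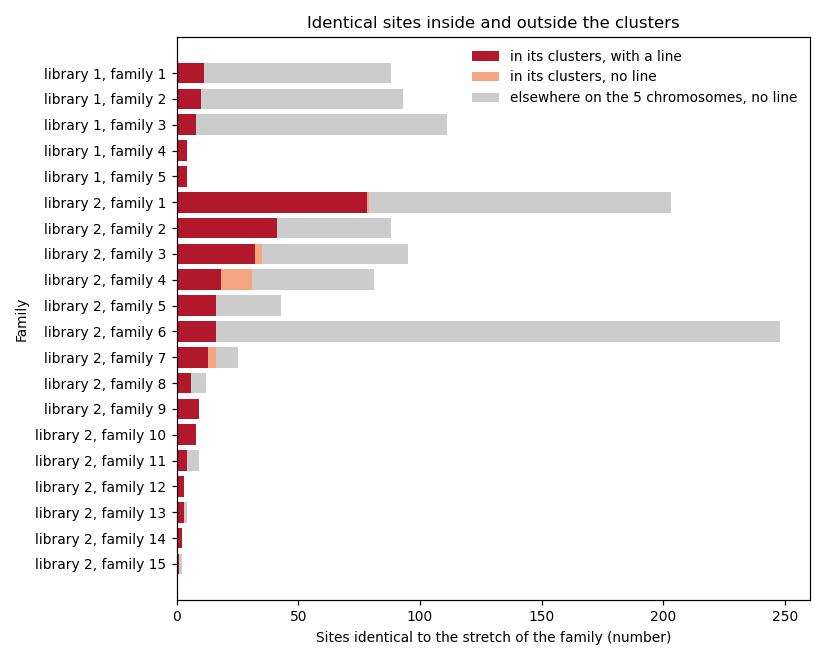
Number of sites on the 5 chromosomes identical to the stretch of each family (x axis), split into sites with a line in the clusters of the family (red), sites without a line in these clusters (orange) and sites without a line elsewhere (grey). Family 6 of library 2 has 248 identical sites, 16 with a line and 232 elsewhere without one, while every site of families 9 and 10 has a line.

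Family 1 of library 2 had 203 identical sites, 60 on chromosome 4, 70 on chromosome 5, 39 on chromosome 2, 23 on chromosome 3 and 11 on chromosome 1. A line was present at 78 of the 79 sites inside its clusters and at 0 of the 124 others. Of the 20 sites without a line inside the clusters of library 2, 13 belonged to family 4, 3 to family 3, 3 to family 7 and 1 to family 1. Sites with 1 mismatch to the stretch had a line in 53 of 384 cases inside the clusters (13.8%), and sites with 2 mismatches in 2 of 321 cases.

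Identical sites without a line also lay near the clusters, in part on the same array and in part beyond it. At clusters 1 and 3 all of them lay beyond the array. The nearest was 1249 bp before cluster 1, whose array reached 97 bp further. At cluster 3, whose array reached 4 bp further, it was 9868 bp after the cluster. A cluster ends at its outermost lines, so by the rule no site within 500 bp beyond an edge could carry a line. Within 20 kb of the edges there were 61 identical sites without a line at cluster 2, 30 at cluster 3, 47 at cluster 4, 36 at cluster 6 and 47 at cluster 7. Cluster 1 had 3. Between clusters 6 and 7, both of library 2, identical sites without a line lay as close as 769 bp to the start of cluster 7. Cluster 5 had none within 20 kb.

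**Figure D5:**
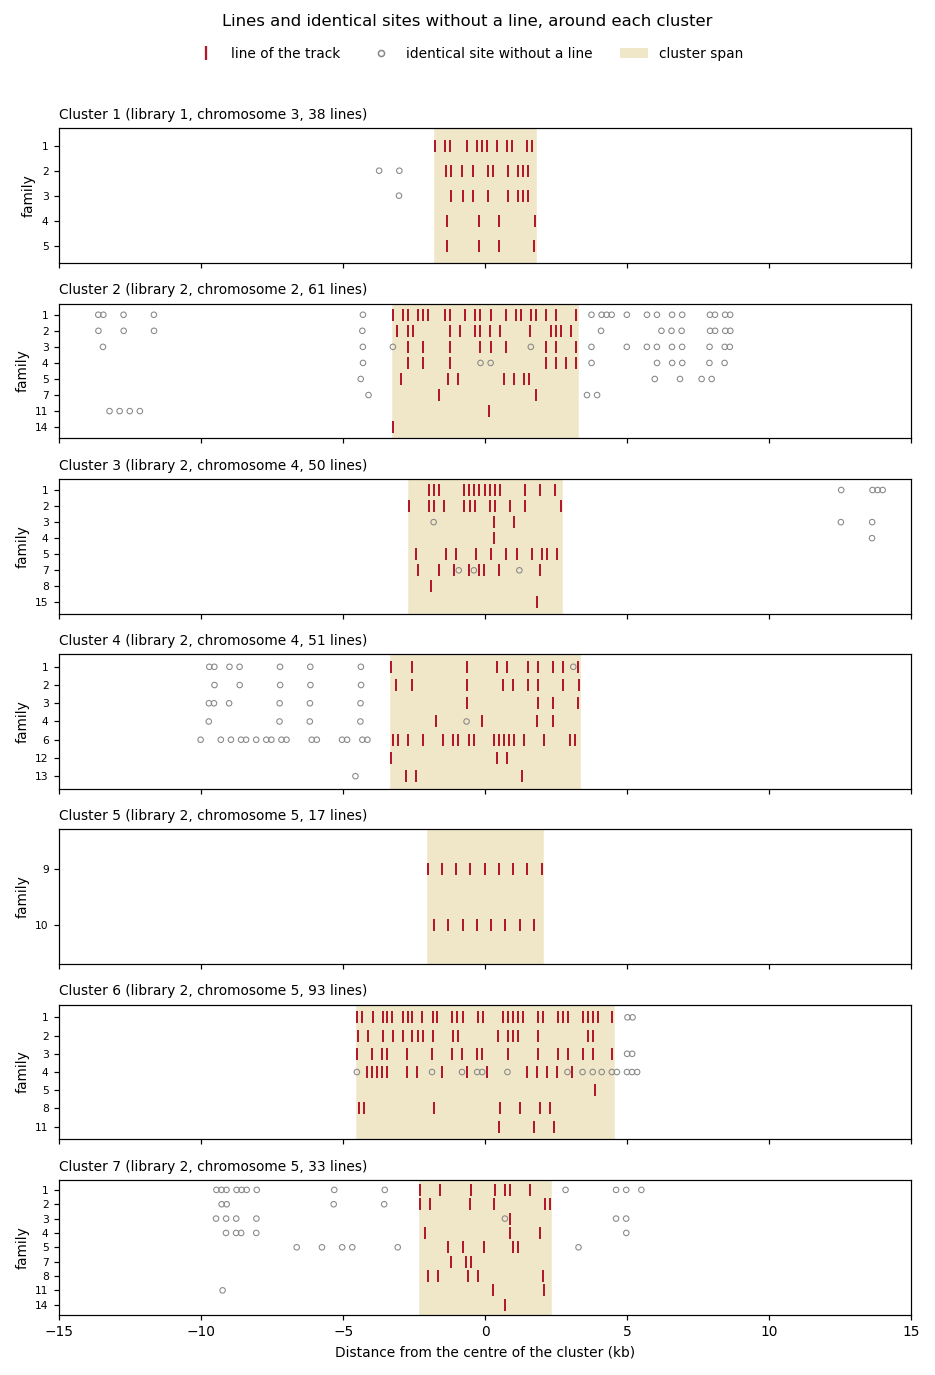
Lines (red ticks) and identical sites without a line (grey circles) of each family (rows) within 15 kb of the centre of each cluster (x axis, kb), with the span of the cluster shaded. Inside the shaded spans nearly every site has a line, 77 of 87 in cluster 6 and 37 of 37 in cluster 1. Sites drawn beyond the spans have no line. Some clusters have such sites on only 1 side, and cluster 5 has none.

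Each cluster was seen in 1 library only. Library 1 had 0 lines within the spans of clusters 2 to 7 and within 5000 bp of them, and library 2 had 0 lines within the span of cluster 1 and within 5000 bp of it. Matching sequence for the other library was present in most of these places. The span of cluster 1 held 55 sites identical to stretches of library 2. The spans of clusters 2, 3, 4, 6 and 7 held 33, 27, 11, 49 and 14 sites identical to stretches of library 1, and that of cluster 5 held none. No line of the library that the stretches came from stood at any of these 189 sites, which follows from the counts of 0 above. Lines of the library with the cluster could overlap them. At the arrays of the short unit, the reference thus held matching stretches for the library without lines. With the depth unknown and the alignment settings not stated, why a library had lines on 1 array and not on others was not tested.

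Several *ONSEN* copies were named in most cluster lines. More than 1 copy was named in 24 of the 38 cluster lines of library 1 (63.2%) and in 74 of its 858 other lines (8.62%). In library 2 it was 247 of 305 cluster lines (81.0%) and 116 of 1239 other lines (9.36%). These shares were not tested, since lines of a family share their names and are not independent. In library 2, 127 lines named 5 copies, 59 named 7 and 42 named all 8. *AT1G48710* and *AT5G13205* were named most often in the cluster lines of library 2, in 241 lines each (79.0%), and *AT3G61330* least often, in 88 lines (28.9%). *AT1G21945* was named in 233 of these lines (76.4%), against 97.3% of the other lines of library 2. In library 1, *AT3G32415* was named in 34 of the 38 cluster lines (89.5%), against 5.83% of the other lines. The lines with a single name gave *AT1G21945* (34 lines) and *AT3G32415* (24 lines) in library 2, and *AT3G32415* (10 lines) and *AT1G48710* (4 lines) in library 1. Since 20 families stand behind the 343 lines, the copies were also counted by family. There, *AT1G21945* was named by 11 of the 15 in library 2, *AT1G48710* by 10 and *AT3G61330* by 6.

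The score of the track gave no further measurement. All lines of a cluster had the same score, which was 0.888 in cluster 5 with its 17 lines and 1 in the 6 clusters with 33 lines or more. The 93 lines of cluster 6, the most of any cluster, belonged to 7 families.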

How the data were processed

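Per the labels, reads of 50 and 35 bp were obtained on a SOLiD 4 sequencer from a fragment library, and the submitters' processing notes name Bowtie 0.12.8 and TAIR9. For 2 of the 6 samples, the authors deposited browser tracks with a score from 0 to 1 and with start, end, strand and copy names, and the other 4 samples were not analysed here. Other values in the tracks, such as positions, were used as deposited. The clusters, lists and comparisons were chosen with earlier results of these data known. Sequences under the lines and gene models were read from TAIR10.1 (RefSeq), and the lines of a family lay on the same stretch there. The score entered only 1 alternative and the check of 1 score for each cluster. Families were linked at up to 2 mismatches over 48 bases or 1 over 33 bases, on either strand. Unit copies were alignments of at least 150 bp (400 bp for the 502-bp unit) made with BLAST+ 2.17.0. Arrays were copies with gaps of at most 1000 bp. Genes named by rule were those overlapped by a cluster line, the 8 *ONSEN* copies and the rRNA named 5S. The 5 flanking features were named after their positions were seen. The steps that form clusters and families and find the repeat length were tested on simulated data with arrays in both orientations. Stretches of 33 and 48 bases were planted there, so this did not test the choice of these lengths. The other steps were not tested in this way. Python 3.11.15, numpy 2.4.6, scipy 1.17.1 and matplotlib 3.10.9 were used. No test was run, because both libraries carry the same labels.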

Additional observations from a re-analysis of the deposited data

How the results depend on the processing

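The number of clusters depended on the merging distance. Merging within 100 bp left 0 clusters and 0 lines in either library, since each cluster held gaps of over 100 bp, and merging within 2000 bp gave 2 clusters in library 1. Leaving out a library left from 1 to 6 clusters and from 38 to 305 lines. The summed number of families per cluster was 49, against 120 with no mismatch allowed in 50 bases. Defined by 33 or 48 bases, a choice made after seeing the data, it was 46, and counting each of these families once over all clusters gave 20. Of the sites identical to a whole 50-base line, 15.2% in library 1 and 29.6% in library 2 had a line. Up to 1 mismatch gave 4.97% and 8.78%, up to 2 mismatches 2.52% and 4.42%, and sites within the clusters only 100% and 62.4%. These sites were counted on both strands, and a line begins at the lower-numbered end of its 33-base or 48-base stretch. In arrays of opposite orientation, a 50-base site thus starts apart from the line of the same family and counts as lacking a line. The 62.4% in library 2 can therefore understate how often a line was there. By stretch, the share was 92.6%. Within 50000 bp of cluster 1, library 2 had 42 lines, all at 1 place of 74 bp. The repeat length was the same in 13 of 14 alternatives, and distances up to 400 bp gave 251 bp for cluster 5. Distances to the centromere moved as given above. No paired analysis was possible because no groups were compared. The unknown depth and the unstated alignment settings limit every count of lines.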
